A study of Mus musculus with 8 samples.

Results

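The proteasome and immunoproteasome genes were taken as all non-control probes of the array whose listed gene name was Psm followed by a letter from a to g and a digit. The rule returned 62 probes for 49 gene names, out of 55681 probes on the array. One of these names, Psmc3ip, matches by spelling only: it encodes a cofactor of meiotic recombination and was kept apart, which leaves 48 proteasome genes. A gene was represented by its brightest probe over all 8 arrays. To be tested, a probe had to be called well above background by the scanner software on 4 or more of the 8 arrays, and 46 of the 48 proteasome genes passed, among 19284 genes in all. They comprised 14 core subunits, 3 immunoproteasome subunits (Psmb8, Psmb9 and Psmb10), 21 regulatory subunits, 3 assembly chaperones of the regulatory particle, 4 assembly chaperones of the core and 1 inhibitor. The remaining genes are tissue-restricted core subunits. Psmb11, the subunit of thymic cortical epithelium, was not well above background on any array, and Psma8, the subunit of male germ cells, was well above it on 1 control array.

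The cells were bone marrow-derived macrophages, grown from the marrow of male C57BL/6J mice. They were transfected with siRNA aimed at the terminal loop of RNY, the Y RNAs (here the Y RNA siRNA, 4 arrays), or with a control siRNA (4 arrays). Y RNAs are short noncoding transcripts that associate with the Ro60 and La proteins. Each of 4 mice gave 1 array per group, and no genetic change is named in the labels. The series is described as a search for targets of small RNAs derived from Y RNAs, and this comparison asks whether proteasome transcripts were among the genes that differed. Values below are levels, the log2 processed signal of a probe minus the 75th percentile of that signal on its array, and a difference is the level with the Y RNA siRNA less that with the control siRNA on this log2 scale. Levels of different probes are not compared with one another. Values are listed for mice 1 to 4 in that order.

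The proteasome cuts ubiquitin-tagged proteins into peptides. Its core, the 20S particle, is a barrel of outer alpha rings (Psma genes) and inner beta rings (Psmb genes), and the catalytic sites lie on the beta subunits encoded by Psmb5, Psmb6 and Psmb7. Cells exposed to interferon-gamma make Psmb8, Psmb9 and Psmb10, which take the places of Psmb5, Psmb6 and Psmb7 in newly built cores and shift the peptides towards ends that class I MHC molecules hold well. The 19S regulatory particle (Psmc and Psmd genes) recognises, unfolds and feeds in the tagged proteins, and the activators of the Psme genes open the core in another way. Macrophages carry immunoproteasomes and use them to supply peptides for class I presentation.

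The share of spots well above background ran from 48.7% to 50.7% by array, and saturation was seen at 0 spots. The 75th percentile of the log2 signal was 9.04 on both arrays of mouse 1 and lay between 9.19 and 9.34 on the other 6. All 8 arrays lay on 1 slide. Slide columns 1 and 3 held the Y RNA siRNA arrays and columns 2 and 4 the control arrays. Column and siRNA group therefore cannot be told apart. The 2 arrays of each mouse lay side by side in 1 row, so mouse and place on the slide cannot be told apart either. The RNA integrity number was 10 for every array except control replicate 4, where it was 8. All 8 macrophage markers examined were above the filter. Their summed level, the log2 of added linear levels, was 10.42 to 10.67 with the Y RNA siRNA and 10.44 to 10.67 with the control siRNA. Of the markers of other cells, 1 of 4 dendritic cell genes (Ccr7) and 1 of 4 neutrophil genes (Camp) were above the filter. So were 3 of 4 fibroblast genes (Col1a1, Col1a2 and Dcn). The other genes of these lists were not: Flt3, Zbtb46 and Xcr1, then Ly6g, Ltf and Ngp, and Pdgfra.

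None of the 46 proteasome genes was called different between the siRNA groups by limma with Benjamini-Hochberg adjustment over all genes, at a threshold of 0.05. The share called over all genes was 0% too. At an unadjusted p under 0.05, 1 of the 46 genes was counted (Psmb9), against 3.4% of all genes. The differences were small: they ran from -0.089 for Psmd10 to 0.13 for Psmb9, so the largest corresponds to 1.10-fold. Their median was 0.010, and 0.0046 over all genes. The Y RNA siRNA mean was the higher for 30 of 46 genes, or 65.2%, against 52.3% of all genes, but that count followed the scaling: it was 23 with normexp background correction, 37 with median centring, 19 with quantile normalization and 27 in the authors' deposited value table. No direction can therefore be given for the proteasome genes as a whole.

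Proteasome transcripts were measured with less spread than most. They were also brighter: 42 of the 46 genes had a mean level above 2, against 36.3% of all genes. The comparisons below are with all genes and were not matched for level, and the part of level in them was not tested. The median over the 46 genes of the pooled within-group SD was 0.086, against 0.14 over all genes, and the median standard error of a difference was 0.067, against 0.095. The 95% interval of the difference lay within a 1.2-fold change in either direction for 40 of the 46 genes (87.0%), against 43.9% of all genes, and within 1.5-fold for all 46, against 84.7% of all genes. The 40 included all 14 core and 3 immunoproteasome subunits. The intervals of Psmd7, Psmd8, Psmd10, Psmd14, Psme3 and Psmg2 crossed 1.2-fold. Among them the interval of Psmd7, a subunit of the 19S lid, ran from -0.34 to 0.22. Its level was 3.50 to 3.73 with the Y RNA siRNA and 3.41 to 3.74 in 3 of the control arrays, while control replicate 4 read 3.99. These intervals bound changes of a gene's signal in this bulk RNA, where a change in the share of cells that carry a transcript and a change in its amount per cell cannot be told apart.

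**Figure D1:**
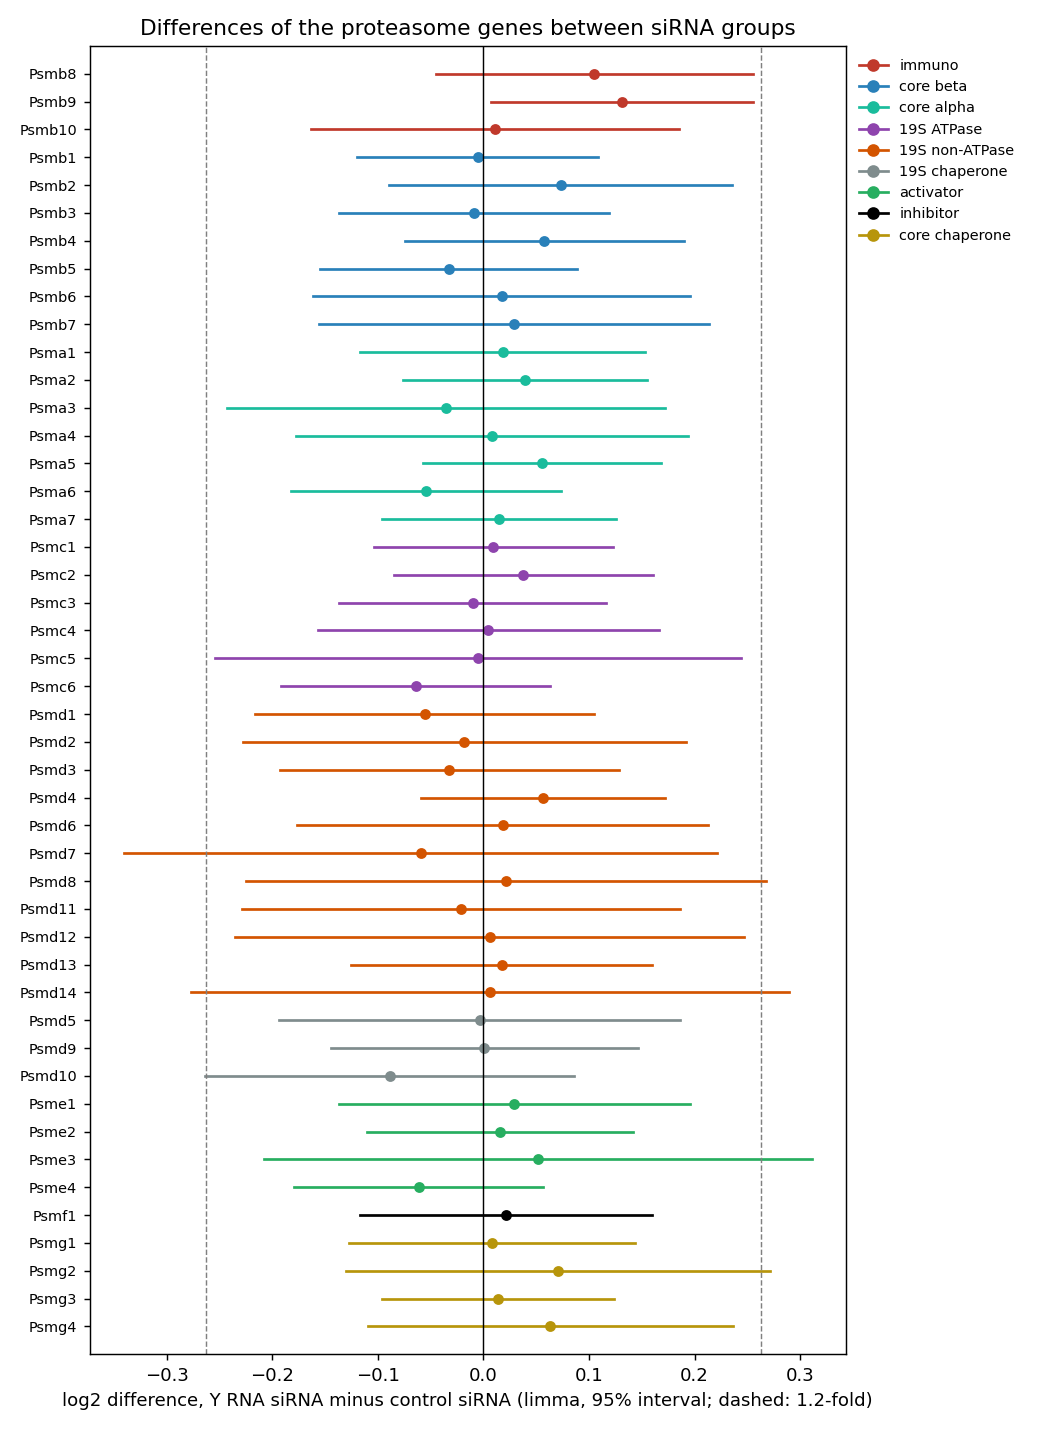
Log2 difference of each of the 46 tested proteasome genes, Y RNA siRNA minus control siRNA, with its 95% interval from limma (4 arrays per group), coloured by class. The dashed lines mark a 1.2-fold change in either direction, within which the intervals of 40 genes lie. The interval of Psmb9 is the only one that leaves out 0.

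The immunoproteasome subunits held the 2 largest positive differences of all members. Their median difference was 0.10, and 3 of 3 were higher on average, against a median of 0.016 for the core subunits (9 of 14 higher) and 0.0058 for the regulatory subunits (12 of 21 higher). The immunoproteasome median stayed positive under every setting tried, between 0.063 without control replicate 1 and 0.14 without mouse 2, mouse 4 or control replicate 2. With 3 genes, however, this median is the value of 1 gene, Psmb8 in the main fit. Psmb10 differed by 0.011 and changed sign in 5 of 22 alternative settings, so the median does not describe a shift of all 3 genes. The core and regulatory medians took both signs: normexp correction gave -0.0016 and -0.00068, and quantile normalization -0.0043 and -0.0044. By mouse, the immunoproteasome median was 0.19, 0.032, 0.18 and 0.014, so mice 1 and 3 carried most of it. The gene that held this median was Psmb9, Psmb10, Psmb9 and Psmb8 in turn. The core median was 0.085, -0.049, 0.010 and -0.0023 in the same mice, and the regulatory median 0.044, -0.040, 0.029 and -0.038. Row 1 of the slide held mice 1 and 2 and row 2 the other mice. The immunoproteasome median was 0.10 within row 1 and 0.11 within row 2. Along the other axis, mice 1 and 3 lay in columns 3 and 4, and mice 2 and 4 in columns 1 and 2. The larger immunoproteasome medians were thus those of columns 3 and 4, and mouse and column pair cannot be told apart. Whether the 3 classes differ from one another was not tested. Beside these values, the lymphocyte markers above the filter, Cd3e and Cd79a, had a summed level of -0.46 to -0.36 with the Y RNA siRNA and -0.35 to -0.15 with the control siRNA, so the groups did not overlap. Cd3e was lower in 4 of 4 mice, at -0.15 ± 0.063 (SE), with an unadjusted limma p of 0.046 and an adjusted p of 1.00. Cd79a was lower in 2 of 4 mice, at -0.21 ± 0.22 (SE). Taken singly, 1.09% of all genes were separated with the Y RNA siRNA lower, and neither Cd3e nor Cd79a was. The probe named Cd79a is placed on chromosome 12 in mm9, and whether it reports that gene was not checked. The part of these markers in the proteasome values was not tested.

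**Figure D2:**
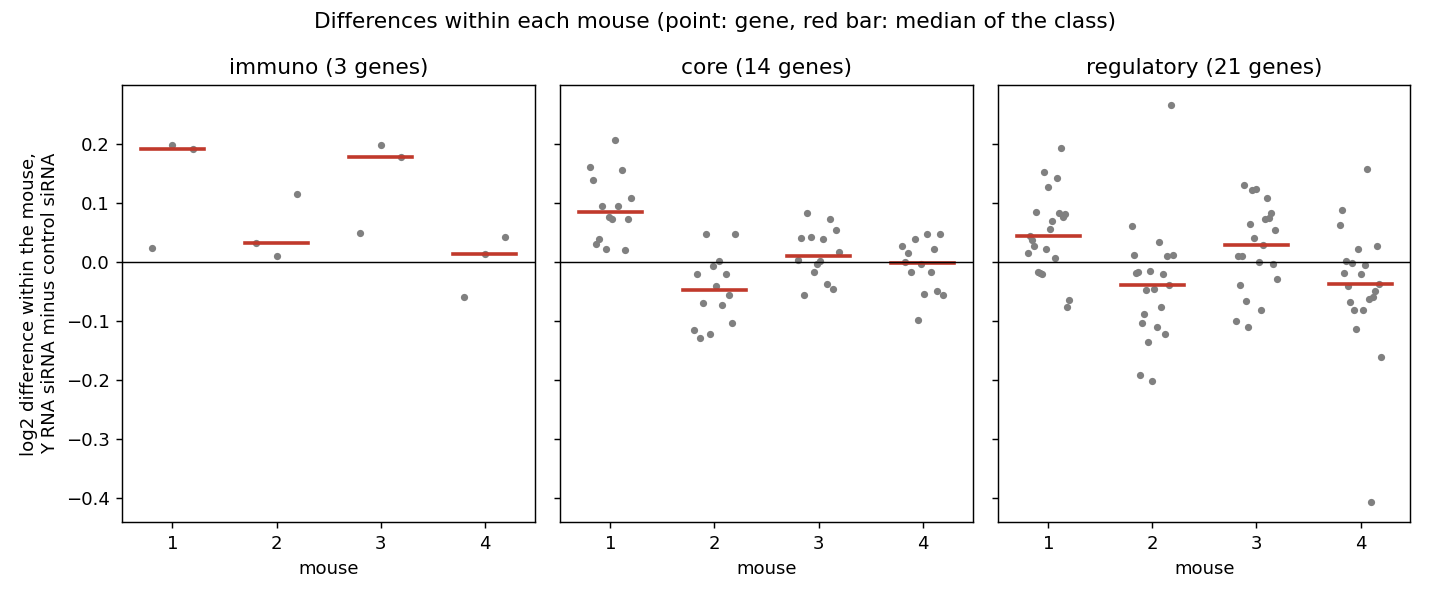
Log2 difference within each mouse, Y RNA siRNA minus control siRNA, for the 3 immunoproteasome, 14 core and 21 regulatory genes. Points are genes and red bars the class medians. The immunoproteasome medians, each the value of 1 of the 3 genes, lie above 0 in all 4 mice, at 0.19 and 0.18 in mice 1 and 3. The core and regulatory medians fall on both sides of 0.

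Psmb9 encodes the interferon-inducible subunit beta 1i, which replaces Psmb6. Its level was 5.09, 5.07, 5.04 and 5.07 with the Y RNA siRNA and 4.90, 4.95, 4.86 and 5.03 with the control siRNA. Every Y RNA siRNA array was above every control array, though the lowest of the first, 5.035, lay close to the highest of the second, 5.031. This was the 1 proteasome gene of 46 whose groups did not overlap with the Y RNA siRNA higher, a pattern shown by 1.34% of all genes. None was separated the other way, against 1.09% of all genes. The means were 5.07 ± 0.023 with the Y RNA siRNA and 4.93 ± 0.075 with the control siRNA (SD, n = 4 each). Their difference of 0.13 ± 0.054 (SE, limma) had an unadjusted limma p of 0.040 and an adjusted p of 1.00, and was positive in 4 of 4 mice at 0.19, 0.12, 0.18 and 0.042. Its 95% interval of 0.0076 to 0.26 corresponds to 1.01-fold to 1.19-fold. Blocking on the mouse gave adjusted p of 0.489 (fixed) and 0.324 (random), the second a fit that called 0.057% of all genes and 0 of the 46. Within slide rows 1 and 2 the difference was 0.15 and 0.11. By mouse it was larger in mice 1 and 3, which lay in slide columns 3 and 4. A second Psmb9 probe, designed on another transcript model, had levels near -3.7. It gave a difference of 0.13 as well, but its levels were not correlated over the 8 arrays with those of the probe used (r = -0.022).

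Psmb8, the subunit beta 5i that replaces Psmb5, had a level of 5.39, 5.45, 5.47 and 5.39 with the Y RNA siRNA, against 5.19, 5.44, 5.28 and 5.38 with the control siRNA. The groups overlapped: the control array of mouse 2 reached the Y RNA siRNA levels, and those of the other 3 mice lay below all 4 of them. The difference was 0.10 ± 0.065 (SE), positive in 4 of 4 mice, with an unadjusted limma p of 0.145 and an adjusted p of 1.00. Without control replicate 1 it was 0.063. Psmb10, the subunit beta 2i that replaces Psmb7, had a level of 6.401, 6.35, 6.30 and 6.48 with the Y RNA siRNA, against 6.38, 6.32, 6.25 and 6.54 with the control siRNA. The mice kept the same order in both groups, and the difference of 0.011 ± 0.076 (SE) was small beside the spread between mice. Quantile normalization gave -0.0042 for Psmb10, so its direction was not settled.

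The counterparts that these subunits replace showed no shared shift the other way. Psmb5, which carries the chymotrypsin-like site, had a level of 6.94, 6.93, 7.02 and 6.93 with the Y RNA siRNA, against 6.92, 6.99, 7.06 and 6.98 with the control siRNA, a difference of -0.033 ± 0.053 (SE). Psmb6, which carries the caspase-like site, read 7.08, 7.12, 7.30 and 7.24 with the Y RNA siRNA, against 7.01, 7.23, 7.25 and 7.20 with the control siRNA, a difference of 0.017 ± 0.077 (SE). In both genes the groups overlapped throughout. Psmb7, which carries the trypsin-like site, read 4.08, 4.20, 4.29 and 4.13 with the Y RNA siRNA, against 3.97, 4.15, 4.28 and 4.19 with the control siRNA, a difference of 0.029 ± 0.080 (SE). The difference of each inducible subunit less that of its counterpart was 0.14 ± 0.089 for Psmb8 over Psmb5 (SD over mice, n = 4, positive in 4 of 4 mice), 0.11 ± 0.092 for Psmb9 over Psmb6 (3 of 4) and -0.018 ± 0.049 for Psmb10 over Psmb7 (1 of 4). The differences of Psmb8 and Psmb9 were thus more positive than those of their counterparts and that of Psmb10 was not, and none of the 3 was tested.

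**Figure D3:**
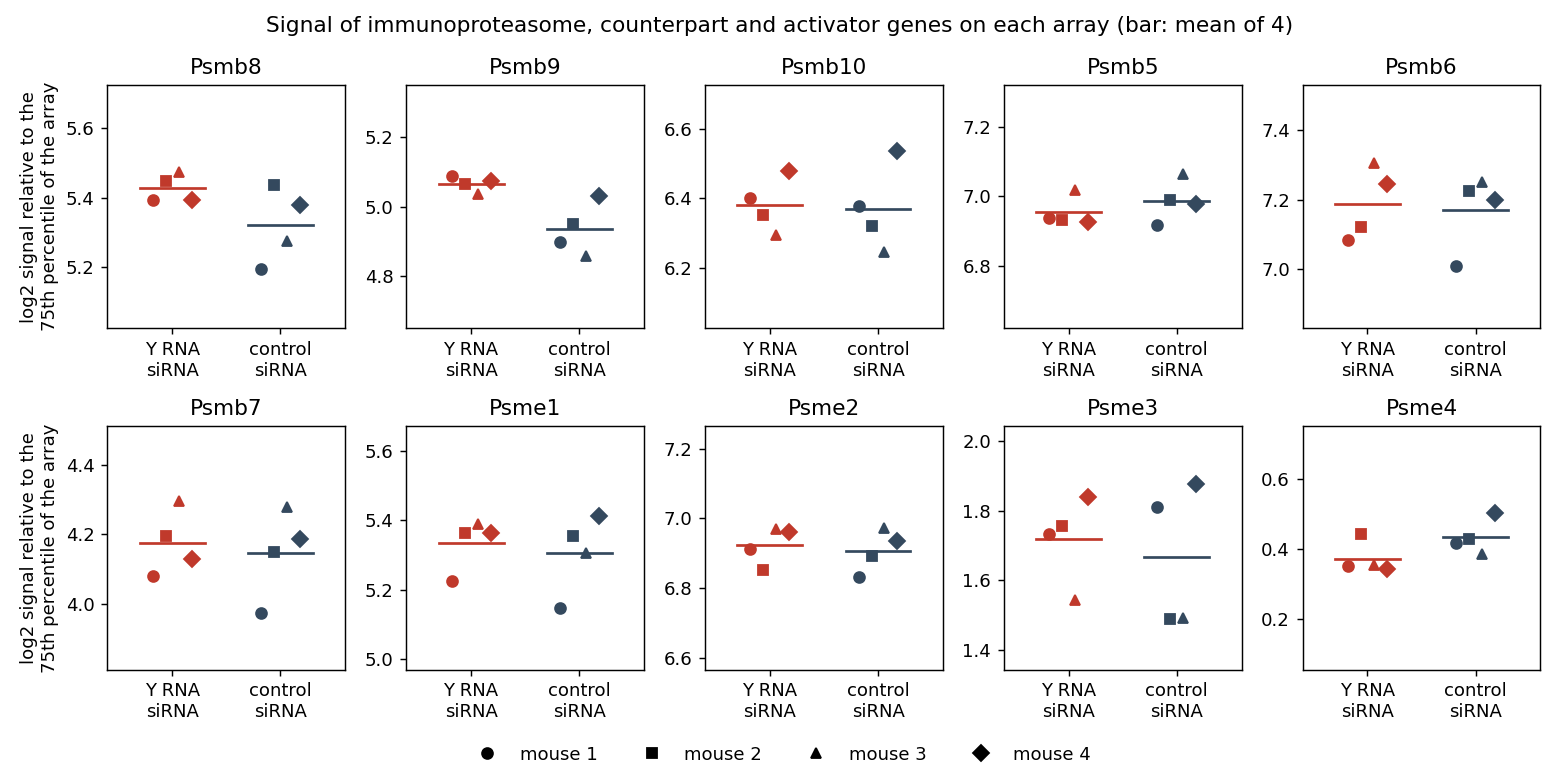
Level of 10 genes on each array (log2 signal less the 75th percentile of that array), Y RNA siRNA on the left and control siRNA on the right. Symbols mark the 4 mice and bars the mean of 4 arrays, and all panels span the same number of log2 units. Psmb9 is the only gene shown whose groups do not overlap, and the symbols of a mouse keep a similar place in both groups for Psmb10, Psmb6 and Psmb7.

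Probe sequences of Psmb8 and Psmb5 are shown because they are related genes whose signals could mix. The 60-base Psmb8 probe (mm9, chr17:34337771-34337830, plus strand) and the second, unused Psmb5 probe (mm9, chr14:55233161-55233220, minus strand) match the same stretch of the 2 paralogs. Capitals mark the bases that are identical where the 2 probes overlap, and the sequences are those listed by the array design.
Psmb8 probe: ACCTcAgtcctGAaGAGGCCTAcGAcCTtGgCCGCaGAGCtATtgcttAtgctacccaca
Psmb5 second probe: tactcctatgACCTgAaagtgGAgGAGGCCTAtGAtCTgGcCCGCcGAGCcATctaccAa
They share 31 of 50 overlapping bases, with a longest identical run of 8. The Psmb5 probe used for the values above shares at best 21 of 57 overlapping bases with the Psmb8 probe. The Psmb9 probe (mm9, chr17:34319174-34319233, minus strand) shares at best 21 of 54 overlapping bases with the Psmb6 probe, and is printed because Psmb9 had the largest difference of the members.
Psmb9 probe: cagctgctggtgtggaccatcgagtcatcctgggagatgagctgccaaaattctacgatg

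The activators were not called either. Psme1 encodes PA28 alpha, an interferon-inducible cap subunit, and its level was 5.23, 5.36, 5.39 and 5.36 with the Y RNA siRNA, against 5.15, 5.36, 5.31 and 5.41 with the control siRNA. Psme2 encodes its partner PA28 beta and read 6.91, 6.85, 6.97 and 6.96 with the Y RNA siRNA, against 6.83, 6.89, 6.97 and 6.93 with the control siRNA. Their differences were 0.029 ± 0.072 and 0.016 ± 0.055 (SE), so the inducible cap genes did not share the size of the Psmb9 difference. Psme3, the nuclear PA28 gamma, read 1.73, 1.76, 1.54 and 1.84 with the Y RNA siRNA, against 1.81, 1.49, 1.49 and 1.88 with the control siRNA, a difference of 0.051 ± 0.11 (SE). Psme4, the activator PA200, read 0.35, 0.44, 0.36 and 0.34 with the Y RNA siRNA, against 0.42, 0.43, 0.39 and 0.50 with the control siRNA, a difference of -0.061 ± 0.051 (SE). In Psme3 both arrays of mouse 3 and the control array of mouse 2 were low, and in Psme4 only the Y RNA siRNA array of mouse 2 reached the control levels. The inhibitor Psmf1 (PI31) differed by 0.021, and the 4 core assembly chaperones Psmg1 to Psmg4 by 0.0081 to 0.071.

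Of the members not yet described, the smallest unadjusted limma p-values between the siRNA groups belonged to Psmd10, Psmc6, Psma5, Psmd4, Psmb2 and Psmb4 (0.275 to 0.342, adjusted p of 1.00 for each). Psmd10, the assembly chaperone gankyrin, read 2.82, 2.68, 2.63 and 2.72 with the Y RNA siRNA, against 2.84, 2.73, 2.69 and 2.96 with the control siRNA, and was lower in 4 of 4 mice. Its difference of -0.089 ± 0.076 (SE) was -0.24 in mouse 4 and between -0.058 and -0.016 in the others (-0.037 without control replicate 4), and its second probe gave 0.021. Psmc6, a 19S ATPase, read 3.19, 3.19, 3.29 and 3.26 with the Y RNA siRNA, against 3.20, 3.29, 3.36 and 3.33 with the control siRNA, and was also lower in 4 of 4 mice. Psma5, a subunit of the alpha ring, read 5.02, 5.09, 5.02 and 5.05 with the Y RNA siRNA, against 4.92, 5.04, 4.97 and 5.01 with the control siRNA. Psmd4, a ubiquitin receptor of the 19S particle, read 6.04, 6.03, 6.06 and 6.16 with the Y RNA siRNA, against 6.03, 5.99, 6.03 and 6.00 with the control siRNA. Psma5 and Psmd4 were higher in 4 of 4 mice, yet their groups overlapped. The beta ring subunit Psmb2 read 2.18, 2.21, 2.23 and 2.29 with the Y RNA siRNA, against 1.97, 2.21, 2.19 and 2.24 with the control siRNA. Psmb4, another beta ring subunit, read 6.63, 6.65, 6.70 and 6.66 with the Y RNA siRNA, against 6.48, 6.67, 6.62 and 6.64 with the control siRNA. In both, control replicate 1 was the low array and the other 7 lay close together. Over all members, 6 genes were higher in all 4 mice and 3 lower in all 4, against 10.4% and 8.86% of all genes.

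Of the genes that work with the proteasome, none on the lists below was called either. Of 9 listed partners, 8 were tested, 3 of them higher on average with a median difference of -0.0066 and 0 called. The 3 with the smallest p were the ubiquitin ligase Ube3c (0.042), the nuclear import factor Akirin2 (-0.034) and the 19S subunit Sem1 (-0.018). Of 5 genes that control proteasome transcription, 3 were higher and 0 called. Among them Ngly1, the glycanase that activates the proteasome transcription factor Nfe2l1, read -1.54, -1.58, -1.60 and -1.57 with the Y RNA siRNA, against -1.20, -1.52, -1.47 and -1.35 with the control siRNA. Its groups did not overlap, and the difference was -0.19 ± 0.075 (SE), with an unadjusted limma p of 0.038 and an adjusted p of 1.00. Ddi2, the protease that cuts Nfe2l1 free, differed by 0.050, and the oxidative stress factor Nfe2l2 by 0.053.

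Of 12 genes of the class I peptide pathway, 9 were higher on average and 0 were called, with a median difference of 0.047. The largest belonged to Tap1, a subunit of the transporter that carries proteasome products into the endoplasmic reticulum. Tap1 read 1.32, 1.16, 1.27 and 1.30 with the Y RNA siRNA, against 1.13, 1.01, 0.91 and 1.02 with the control siRNA, so the groups did not overlap. The difference of 0.25 ± 0.065 (SE) had an unadjusted limma p of 0.0055 and an adjusted p of 0.977. Nlrc5, the transactivator of class I genes, differed by 0.16 ± 0.059 (SE), with an unadjusted limma p of 0.029 and an adjusted p of 1.00. The chaperone Calr went the other way at -0.22 ± 0.12 (SE), with an unadjusted limma p of 0.111. Calr was lower in every mouse, at -0.21, -0.30, -0.11 and -0.25. Blocking on the mouse (fixed) gave unadjusted limma p of 0.0060 for Calr, 0.0047 for Tap1 and 0.016 for Nlrc5. The adjusted p in that fit was 0.364, 0.352 and 0.425. Of 7 genes of the interferon-gamma axis, 3 were higher, the median was -0.018 and 0 were called. Jak2, a kinase of the receptor, differed by 0.10, and the receptor chains Ifngr2 and Ifngr1 by -0.067 and -0.083.

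Psmb9 and Tap1, the genes with the largest positive differences of their lists, are neighbours on chromosome 17 that start back to back. Their start sites in RefSeq (GRCm38.p6) have 225 bases between them. The whole stretch between them is printed because both genes share it, on the plus strand from the Psmb9 side to the Tap1 side (chr17:34187331-34187555), with a GC box in capitals. The capitals spell the GC box (GGGCGG, searched on both strands) on the strand of Psmb9.
Psmb9 to Tap1: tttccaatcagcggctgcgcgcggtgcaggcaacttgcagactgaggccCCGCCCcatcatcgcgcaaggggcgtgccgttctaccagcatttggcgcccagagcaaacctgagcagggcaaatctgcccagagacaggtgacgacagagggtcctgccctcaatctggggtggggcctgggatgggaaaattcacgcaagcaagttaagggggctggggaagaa
Promoter windows of 300 bases, 250 before to 50 after a start, were given for 40 of the 48 genes, in 43 windows. Their median GC content was 57.3%, against 52.7% over all 32851 windows. The GC box was found in 24 of the 43 windows, against 35.66% of all windows. A binding motif of interferon-activated STAT factors (TTCNNNGAA, both strands) was found in 3 of the 43, those of Psmb8, Psmd2 and Psmg1, against 8.3% of all windows. The Psmb8 match lies at positions -97 to -89 from the start and is in capitals below (GRCm38.p6, chr17:34197945-34198194, plus strand).
Psmb8 upstream: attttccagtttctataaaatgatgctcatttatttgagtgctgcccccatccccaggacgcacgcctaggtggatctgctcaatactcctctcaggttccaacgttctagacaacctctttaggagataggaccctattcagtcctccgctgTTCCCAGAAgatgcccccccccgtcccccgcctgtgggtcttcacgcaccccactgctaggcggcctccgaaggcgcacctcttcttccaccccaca
A motif of interferon-stimulated response elements (GAAA, any 2 bases, GAAA, on both strands) was found in 5 of the 43 windows, against 3.44% of all: those of Psmb3, Psmd4, Psmd9, Psme1 and Psmg4. The antioxidant response element (TGACNNNGC, both strands), a motif of the Nfe2l1 and Nfe2l2 factors, was found in 6, against 12.39% of all: those of Psmb5, Psmb6, Psmc6, Psmd12, Psmd9 and Psme4. The window of Psmb9 is not among those listed for the last 3 motifs. Psmb10 is not listed for any motif, and it may be among the genes without a window. A match is a run of letters and not a measured site.

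Many proteasome genes followed a shared order of the mice. The 2 arrays of a mouse lay side by side, so this cannot be told apart from an order of slide places. Between the 2 arrays of a mouse, deviations from the group means correlated over the members at 0.79, 0.044, 0.75 and 0.28. The median range between the 4 mouse means was 0.17, against 0.25 over all genes, beside a median absolute siRNA difference of 0.021, against 0.059 over all genes. A moderated F-test of the mouse, with the siRNA group kept in the model, called 0 of the 46 genes after adjustment, against 4.7% of all genes. At an unadjusted p under 0.05 it counted 8 of 46, or 17.4%, against 29.7% of all genes, so no more members than background passed. The order of the mice was nevertheless alike in many members. The mean of mouse 1 was the lowest of the 4 mice in 35 of the 46 genes, or 76.1%, against 33% of all genes, and that of mouse 3 the highest in 26, or 56.5%, against 27.4%. Among genes of a mean level above 2, mouse 1 was lowest in 34 of 42 members, or 81.0%, against 37.7% of all such genes. The count of 35 lay between 33 and 38 under 4 other normalizations and 3 other choices of filter or probe.

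In the 19S particle, mouse 1 was lowest in 15 of 17 genes and mouse 3 highest in 13, and the median deviation from the mean of the 4 mice was -0.12, 0.027, 0.089 and 0.0069. Mouse 1 was also lowest in 11 of the 14 core genes and in 4 of the 4 core assembly chaperones. For the core the deviations were -0.066, 0.020, 0.037 and 0.0076. The immunoproteasome genes did not follow this order, with mouse 1 lowest for Psmb8 but mouse 3 lowest for Psmb9 and Psmb10, and mouse 4 highest for both of these. The unadjusted mouse p was 0.378 for Psmb8 and 0.464 for Psmb9 in the limma F-test, so their order is uncertain. Psme3 and Psmd10 also had mouse 3 lowest and mouse 4 highest. Mouse 3 was lowest in 2 of the 4 activators, and in 6341 of the 19284 genes tested. No test of the difference between these classes was made.

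**Figure D4:**
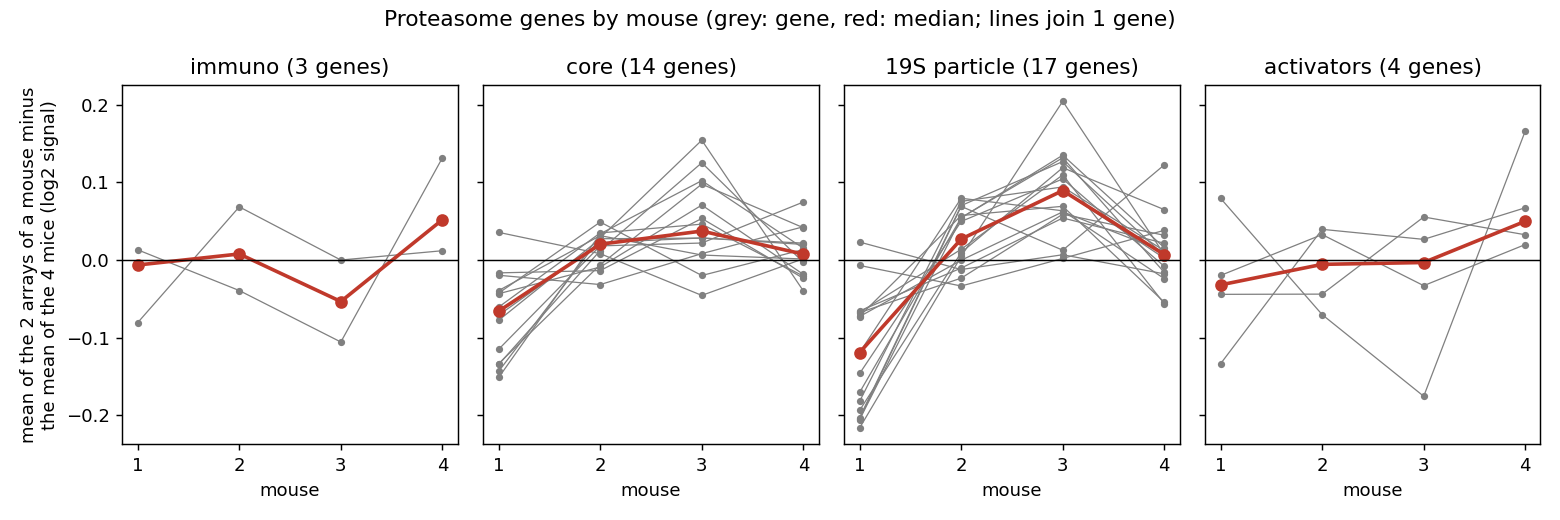
Mean of the 2 arrays of each mouse minus the mean of the 4 mice (log2 signal) for the immunoproteasome, core, 19S and activator genes. Grey lines join the values of 1 gene and red lines the class medians. Mouse 1 lies lowest in 15 of the 17 genes of the 19S particle and mouse 3 highest in 13, while the 3 immunoproteasome genes do not follow that order.

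Psmd2, a scaffold subunit of the 19S base, had the smallest mouse p (0.017, adjusted p = 0.109 in the limma F-test). Its level was 5.21, 5.38, 5.48 and 5.29 with the Y RNA siRNA, against 5.15, 5.43, 5.48 and 5.38 with the control siRNA. Psmd11, a lid subunit, read 2.19, 2.44, 2.51 and 2.36 with the Y RNA siRNA, against 2.22, 2.49, 2.45 and 2.44 with the control siRNA. Both arrays of mouse 1 were the lowest of their group in each gene. Psma3, of the alpha ring, read 5.80, 5.89, 6.06 and 5.90 with the Y RNA siRNA, against 5.77, 6.02, 6.11 and 5.88 with the control siRNA. Psmc4, a 19S ATPase, read 4.31, 4.49, 4.49 and 4.397 with the Y RNA siRNA, against 4.29, 4.51, 4.48 and 4.39 with the control siRNA. In these 4 genes the range between mice was 0.20 to 0.30, against siRNA differences between -0.035 and 0.0046. The widest range of all members, 0.42, belonged to Psmd14, the deubiquitinating subunit of the 19S lid, with mouse means of 2.36, 2.58, 2.78 and 2.58.

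Several other values moved with mouse 1. The 75th percentile that levels are set against was lowest on its 2 arrays, as given above. The fibroblast markers above the filter were also lowest in mouse 1: Col1a1 read -2.06, -1.26, -1.11 and -0.82 with the Y RNA siRNA and -2.57, -1.32, -0.89 and -0.70 with the control siRNA, and differed between mice at an adjusted p of 0.047 in the limma F-test. The summed level of the 3 markers ran from 0.010 to 1.51 with the Y RNA siRNA and from -0.40 to 1.36 with the control siRNA. Of the 8 macrophage markers, 2 were called between mice: Lyz2 and Cd14, genes for lysozyme and the lipopolysaccharide coreceptor. Their adjusted p was 0.048 and 0.046 in the limma F-test. Both were highest in mouse 1, at mean levels of 8.61 and 6.53. Cd68 was highest in mouse 2, Mertk in mouse 4 and the remaining markers in mouse 1. Over all genes, mouse 1 was the highest in 7000 of 19284. The part of any of these in the lower proteasome levels of mouse 1 was not tested.

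Genes with several probes gave a check on the probe chosen. Of 12 proteasome genes with at least 2 probes above the filter, 5 had siRNA differences of the same sign from every probe and 7 did not. The widest gap between probes of a gene was 0.11, in Psmd10, which is about as large as the largest differences reported here. Over the 8 arrays the third probe of Psme2, placed on another transcript model, correlated with the probe used at r = -0.38, and the second probe at 0.65. The second probe of Psmc1, designed on the same transcript as the probe used, correlated with it at -0.43. The second probe correlated at 0.19 for Psme4, 0.32 for Psmd9 and 0.40 for Psmd10. For Psma4, Psmb5, Psmc2, Psmc3, Psmd12 and Psmg1 it correlated at 0.75 to 0.86.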

How the data were processed

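The deposited scanner files hold linear intensity values per spot from 1-colour Agilent arrays of design 028005 (mm9), made with Feature Extraction 10.7.3.1, per the file headers. The processed intensity was background-subtracted by that software with no scaling between arrays, per the file headers. Total RNA was labelled with Cy3, per the labels. A further table of log2 values was deposited by the authors. Its column medians were 6.35 to 6.37 and each column correlated at 0.9998 or more with the log2 median signal of its array, so the scale is log2, while centring and method remain unknown. It served as an alternative.

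Here, log2 processed signals were centred on the 75th percentile of each array and the 3671 control spots and outlier-flagged spots were left out. Spots of a probe were averaged, and 26818 probes passed the filter. Of these, 16396 matched a RefSeq accession (GRCm38.p6) for names. No value of a proteasome gene was missing. The comparison used limma 3.58.1 (R 4.3.3), unpaired and two-sided, with moderated variances, and p-values were adjusted over all 19284 genes. No set test or test over the members was run. The fits were tested on simulated data with known changes. Those changes were larger than any difference of a member between siRNA groups or mice, so power at the sizes reported here was not examined. Probe positions are those of the files in mm9. Exon and UTR annotation of that build was not used here.

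The series design states 2 conditions on 4 mice. Over all genes, the deviations from the group means correlated between the 2 arrays of a mouse at 0.62, 0.16, 0.58 and 0.29. These arrays also lay side by side on the slide. On the stated design and these values, replicate numbers were taken to pair the arrays. Fits with the mouse as a block were run as alternatives. Values in every array are given for Psmb5 to Psmb10, Psme1 to Psme4, the 6 further members with the smallest siRNA p and the 4 further members with the smallest mouse p. From each list of other genes the 3 with the smallest p are named. The members and lists were chosen with earlier results of these data known. The alternatives covered background correction, normalization, filter, choice of probe, array weights, blocks and leaving out arrays. The number of arrays limits the precision. A part of the lymphocyte marker list is not reported here.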

Additional observations from a re-analysis of the deposited data

Results flagged for a closer look

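Among 40 groups of 4 arrays examined for 1 array far from the others, 3 were picked out, where chance picks about 1 in 20. Psmb5 read 7.02 with the Y RNA siRNA in mouse 3, above 6.93 to 6.94 in the other 3 mice, and the control array of mouse 3 was also the highest of its group (7.06). Psme1 read 5.23 with the Y RNA siRNA in mouse 1, below 5.36 to 5.39 in the others, and the control array of mouse 1 was likewise the lowest of its group (5.15). Psme4 read 0.44 with the Y RNA siRNA in mouse 2, above 0.34 to 0.36 in the others, while the control arrays ran from 0.39 to 0.50.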

How the results depend on the processing

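With the mouse as a fixed replicate block 0 of 46 proteasome genes and 0 of all genes were called between the siRNA groups, and with it as a random block 0 and 11, or 0.057% of all genes, so the pairing changed no call of a member. No alternative called a member between siRNA groups. Between mice, normexp correction called 2 members (Psma3 and Psmd2) and 3313 genes in all, and the authors' deposited values called 1 member (Psmd2) and 1861. Array weights gave 1462 genes in all, no filter on dim probes 173, and leaving out a mouse 2 (without mouse 1) to 1224. The regulatory median was -0.039 with array weights and ran from -0.067 (without control replicate 1) to 0.041 when arrays were left out. Median centring moved the median of all genes by 0.029. The slide row block and the counts of genes lowest in mouse 1 were chosen after seeing the data, and called 0 members. Of 443 differences of named members recomputed, 43 changed sign and 0 passed the threshold. Normexp gave -0.021 for Psmc4. Median centring gave 0.011 for Psmd2 and 0.0079 for Psmd11. Quantile normalization gave -0.0042 for Psmb10, -0.0098 for Psmb6, -0.0044 for Psme2 and -2e-04 for Psmc4. The deposited table gave 0.022 for Psmb5, -0.022 for Psmb6 and -0.011 for Psmc4. The mean over probes gave -0.00033 for Psme2, and array weights -0.026 for Psmb6, -0.0088 for Psme2 and -0.012 for Psmc4. Leaving out arrays or mice gave the following.
Values ran from -0.087 to 0.026 for Psmd2, -0.082 to 0.039 for Psmd11, -0.094 to 0.019 for Psma3, -0.039 to 0.041 for Psmc4, -0.036 to 0.058 for Psmb6, -0.029 to 0.073 for Psmb7, -0.03 to 0.067 for Psmb10, -0.023 to 0.066 for Psme1, -0.0096 to 0.04 for Psme2 and -0.02 to 0.12 for Psme3. The cause of these sign changes was not tested.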
